A study of Mus musculus with 4 samples.

Results

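The regions described here are 1000 distal peaks of open chromatin that held a larger share of the counts in barcode set 1 than in barcode set 2 of one single-cell ATAC-seq table. They were selected on that ratio. From 93513 peaks, the 76725 that lay more than 1000 bp from every GRCm38 start of a protein-coding transcript were taken as distal, and the 30022 of these with at least 100 counts over both sets were ranked by their log2 ratio between the sets. The ratio was taken of CPM, the counts of a peak per 1e6 counts of its set, with a pseudocount of 1 CPM. The 1000 highest, 3.33% of the ranked peaks, were kept and are called members. Over all ranked peaks, 5.58% had a log2 ratio of 1 or more, and the lowest ratio among members was 1.23.

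The table came from C57BL/6JRj mice aged 22 to 28 months, whose long-term hematopoietic stem cells (LT-HSCs) were sorted by antibody into CLCA3A1high and CLCA3A1low cells. Each of these samples was 1 pool of 10000 sorted cells, 2500 from each of 4 mice, and the study asked how the chromatin of the CLCA3A1 fractions differs. Other samples of the study were young LT-HSCs of mice aged 3 to 4 months and old LT-HSCs of mice aged 22 to 28 months. The cell barcodes of the table end in 1 of 2 suffixes, here barcode set 1 and barcode set 2, and the labels do not say which suffix belongs to which sample, so no direction given here belongs to CLCA3A1high or CLCA3A1low cells.

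LT-HSCs are the rare bone marrow cells that maintain all blood lineages. Distal open chromatin holds enhancers, stretches of DNA where sequence-specific factors bind and act on promoters that may lie far away. In blood stem cells, GATA2 and PU.1 are known to act through such elements, with GATA factors also acting in megakaryocytes and red cells and PU.1 in myeloid and lymphoid cells. AP-1 is a dimer of FOS and JUN proteins induced by many signals, TEAD proteins are the DNA-binding partners of YAP and TAZ, and CTCF organizes chromatin loops.

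Central windows of 5 members are printed because they show the words that the results turn on, and because these members had the highest ratios or the most counts. The bases are from the RefSeq GRCm38 genome, plus strand, 5′ to 3′, and capitals mark a GATA word (AGATAAG), an AP-1 word (TGACTCA) or a TEAD word (ACATTCC) on either strand. The Pip5k1b peak holds an AP-1 word, the Kcna4 peak a GATA word, the Mbnl1 peak a GATA and a TEAD word, the B4galt5 peak an AP-1 and a GATA word, and the Prrc2b peak a TEAD word.
Pip5k1b peak, chr19:24572014-24572313: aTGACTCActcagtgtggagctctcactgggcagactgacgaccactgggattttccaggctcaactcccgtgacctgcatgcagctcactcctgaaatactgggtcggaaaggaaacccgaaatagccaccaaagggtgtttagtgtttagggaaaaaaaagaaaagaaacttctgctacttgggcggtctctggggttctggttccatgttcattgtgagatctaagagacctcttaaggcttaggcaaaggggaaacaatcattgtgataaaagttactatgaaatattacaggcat
Kcna4 peak, chr2:107231701-107232000: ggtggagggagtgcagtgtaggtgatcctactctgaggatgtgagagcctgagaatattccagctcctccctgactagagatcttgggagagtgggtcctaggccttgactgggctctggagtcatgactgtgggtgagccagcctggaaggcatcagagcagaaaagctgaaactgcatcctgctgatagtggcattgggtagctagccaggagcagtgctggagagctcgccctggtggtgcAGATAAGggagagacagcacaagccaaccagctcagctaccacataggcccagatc
Mbnl1 peak, chr3:60648426-60648725: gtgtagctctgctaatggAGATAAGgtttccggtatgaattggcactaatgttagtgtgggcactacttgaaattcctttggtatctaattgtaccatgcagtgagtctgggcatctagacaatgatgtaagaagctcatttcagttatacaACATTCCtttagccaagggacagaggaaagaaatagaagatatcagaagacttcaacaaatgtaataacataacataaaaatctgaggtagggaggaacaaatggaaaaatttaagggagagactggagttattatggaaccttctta
B4galt5 peak, chr2:167383811-167384110: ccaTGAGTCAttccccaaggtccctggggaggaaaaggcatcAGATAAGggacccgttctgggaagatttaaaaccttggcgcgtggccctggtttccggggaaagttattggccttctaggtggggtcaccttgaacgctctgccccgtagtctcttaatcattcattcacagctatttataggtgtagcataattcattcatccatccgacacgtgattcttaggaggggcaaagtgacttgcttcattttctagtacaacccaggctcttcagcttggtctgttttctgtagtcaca
Prrc2b peak, chr2:32128081-32128380: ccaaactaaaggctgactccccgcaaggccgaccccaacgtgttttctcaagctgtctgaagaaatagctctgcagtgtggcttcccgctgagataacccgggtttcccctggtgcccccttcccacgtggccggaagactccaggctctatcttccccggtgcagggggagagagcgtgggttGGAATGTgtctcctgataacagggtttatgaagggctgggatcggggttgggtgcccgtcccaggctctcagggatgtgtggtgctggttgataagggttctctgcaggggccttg

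The member with the highest ratio lay between genes, 16.3 kb upstream of the nearest protein-coding start, that of Pip5k1b, which encodes a phosphatidylinositol phosphate kinase (chr19:24571782-24572545). It had 177 counts in set 1 and 7 in set 2, or 13.6 CPM (95% Poisson interval 11.6 to 15.7) against 0.713 CPM (0.287 to 1.47). Its log2 ratio was 3.09 with the pseudocount, and the exact 95% interval of the plain count ratio ran from 3.18 to 5.59, above the value that the pseudocount shrinks. A count is 1 transposase cut site, most values were even because a fragment usually brings a pair of sites, and the intervals, which treat counts as independent, include counting error alone and are too narrow. The cells of each set came from 1 library, so no p-value between the sets is given.

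The next members by ratio were far from protein-coding starts, although a processed pseudogene, Gm48470, starts 1432 bp from the Nr2f1 member. A peak 129 kb from the start of Spry2, which encodes an inhibitor of receptor tyrosine kinase signalling, had 222 counts in set 1 and 12 in set 2. A peak 1243 kb from the start of Nr2f1, an orphan nuclear receptor gene, had 259 and 16 counts. The member nearest to Sst, the somatostatin gene, had 190 and 10 counts. In each of these the counts of set 2 came from 5 to 8 cells, against 80 to 111 cells in set 1.

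The Kcna4 member, whose sequence is shown above, lay 58.8 kb from the start of a gene for a voltage-gated potassium channel and had 407 counts in 157 cells of set 1 and 34 counts in 16 cells of set 2. It was the deepest of the 10 members with the highest ratios, with a log2 ratio of 2.85, and the Kcna4 promoter itself had a log2 ratio of 1.43. The Mctp2 member had 111 counts against 3 and held a GATA word. The Mbnl1 member, near the gene for an RNA splicing regulator, had 124 counts against 5, and its TEAD word began 2 bp from the centre of the peak. A member in an intron of Fam19a1, nearest to the start of 1700123L14Rik, had 192 counts against 12 and held a RUNX and a GATA word. The remaining members of the top 10, nearest to Tnrc6a and Gcfc2, had 266 against 20 and 255 against 19 counts. Of these 10 members, 4 held the GATA word.

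The 10 members with the most counts had smaller ratios, from 1.24 to 1.74. The deepest lay 5.50 kb upstream of Asic1, an acid-sensing ion channel gene, and had 930 counts in 315 cells of set 1 and 280 counts in 100 cells of set 2. A peak 5.88 kb inside Amotl2, an angiomotin family gene whose product binds YAP and TAZ, had 680 counts against 159, a log2 ratio of 1.63 with a counting interval of 1.44 to 1.94. The peak 38.4 kb upstream of Atp5o, a gene of mitochondrial ATP synthase, had 841 against 186 counts. The B4galt5 member, near a galactosyltransferase gene, had 747 against 210 counts, and the Prrc2b member 687 against 148. Further deep members were nearest to Mkln1, Dsn1, Gypc and Tm2d1 by protein-coding start. The Mkln1 member lay 28.9 kb from that start and 4721 bp from the start of a Podxl transcript that is not protein-coding. The Dsn1 member lay 20.5 kb upstream of Dsn1, in an exon of Soga1, and overlapped such a start of Soga1.

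Over all members, the log2 ratio had a median of 1.52 and ran to 3.09, whereas all ranked peaks had a median of 0.045. The median member had 10.8 CPM in set 1 and 2.85 CPM in set 2, and at least 1 count in 7.82% of the cells of set 1 and 2.20% of those of set 2. Together the members held 178487 counts in set 1 and 38023 in set 2, which is 1.37% of one set's counts and 0.387% of the other's, a ratio of 3.53. These values describe the selection. The same rule applied to cells thinned to equal depth, with 7021 ranked peaks left, kept 132 of the members and gave a median ratio of 0.78 and a summed ratio of 1.81. All 1000 members had a counting interval above a log2 ratio of 0, 810 had one above 1, and each had counts in set 2. These intervals use the counts that chose the members, so they too describe the selection. The same share was not computed over all ranked peaks.

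**Figure D1:**
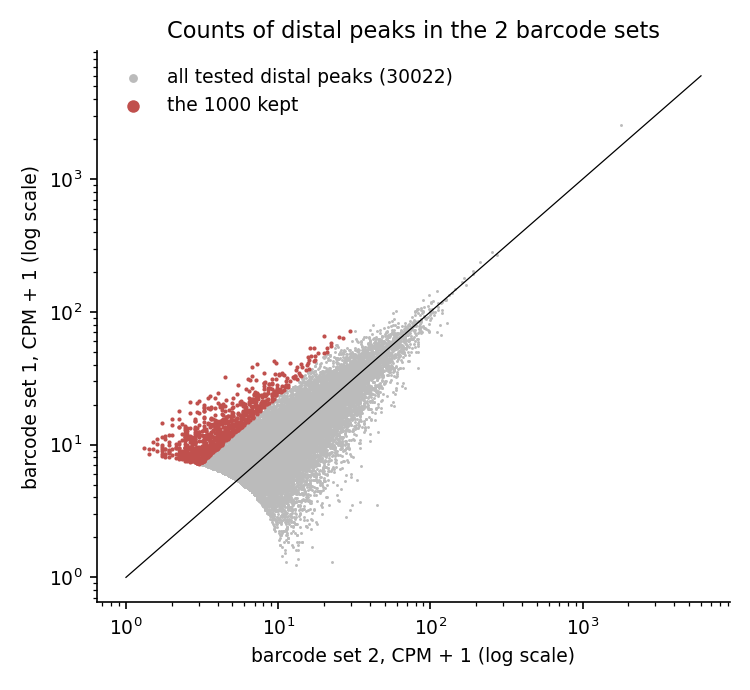
Each point is a ranked distal peak, with its CPM plus 1 in barcode set 2 on the horizontal and in set 1 on the vertical log axis; red points are the 1000 members and the line marks equal values. The members form the upper edge of the cloud, at a median of 10.8 CPM against 2.85 CPM, and the curved lower left border is the minimum of 100 counts.

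No single cell made the members. The deepest cell of a member gave a median of 3.31% of its counts and at most 12.8%, with over 10% in 4 members. The sets held 39 and 18 cells with more than 3 times the median counts, and these cells gave 15% of the members' counts in set 1, the same as their 15% of all counts, and 9.01% against 11.8% in set 2. The members just inside the limit included a peak near Tnfrsf11b with a ratio of 1.23, and the first peak outside it, near Tet3, also had 1.23.

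To see how far the ratio rested on the cells that chose the peaks, every second cell of each set was used to choose 1000 peaks and the ratio was measured in the other 727 cells. The chosen peaks had a median log2 ratio of 1.63 in the choosing cells and 1.26 (95% interval of the median 1.19 to 1.32) in the cells not used, where 954 of the 1000 were above 0. All ranked peaks had a median of 0.054 in those cells, and 53.5% of them were above 0. With the roles of the cells swapped, the medians were 1.68 and 1.23. Again 954 were above 0, against 52.0% of all ranked peaks. The 2 choices shared 696 and 702 peaks with the members. Both groups of cells came from the same libraries, so differences between mice were not measured. The interval is over the 1000 peaks and treats them as independent. It is too narrow, as the chosen peaks varied together across cells (below).

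The labelled cell type was checked at fixed marker genes. All 8 LT-HSC markers, including Kit, Mecom, Hlf and Procr, had peaks, with a summed 890 CPM in set 1 and 790 CPM in set 2. Mecom gave 392 and 332 CPM of these sums, while Ly6a (39.9 against 45.6 CPM) and Fgd5 (51.0 against 64.0 CPM) were lower in set 1. The 3 progenitor markers, Flt3, Cd34 and Cd48, were lower in set 1, at 116 against 208 CPM together. Ms4a1 of B cells, Cd3e of T cells and Ly6g of granulocytes had no peak in the table. The other genes of these lists had peaks, from 0.153 CPM in set 1 at S100a9 to 96.8 CPM at Cd79a. The LT-HSC marker Procr had 33.9 CPM in set 1. The summed lists of B cell, T cell, granulocyte and monocyte, erythroid and megakaryocyte markers lay between 73.1 and 271 CPM in set 1. In set 2 they lay between 90.3 and 225 CPM. The sums were not scaled by the number of peaks, 52 at Mecom alone, so they do not measure purity. The part of progenitor-like cells in the ratio of the members was not tested. The sets shared 0 barcode sequences.

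The members lay farther from protein-coding starts than the other lists. Their median distance to the nearest protein-coding start was 36.0 kb, against 21.9 kb over all ranked peaks, 20.2 kb for the 1000 in the middle of the ranking and 22.3 kb for the 1000 lowest. More than 100 kb separated 24.2% of members from a start (exact 95% Clopper-Pearson interval 21.6 to 27), compared with 13.4% of all ranked peaks and 13.9% of the lowest. When ranked peaks were split into 5 bins of distance of about equal size, 5.70% of the farthest bin and 2.38% of the nearest were members. The 1000 lowest made up 3.33% of the farthest and 2.81% of the nearest bin. The share of members beyond 100 kb depended on the processing, at 15.5% (13.3 to 17.9) with thinned cells, against 12.6% of the peaks ranked there, and 20.3% (17.8 to 22.9) with each peak counted once per cell, against 12.8%.

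By annotation, 488 members lay in introns, 475 between genes and 37 in exons. The intron share of 48.8% (45.7 to 51.9) and the intergenic share of 47.5% were close to the 46.8% and 47.5% of all ranked peaks, while the exon share of 3.70% (2.62 to 5.06) was below their 5.79%. With thinned cells the exon share was 6.10% (4.70 to 7.77) against 6.27%, and counting any overlap with an exon gave 9.40% against 13.9%. The other annotated starts belong to long non-coding RNAs, pseudogenes and the like, or to transcripts of protein-coding genes that are not themselves protein-coding. Such starts lay within 1000 bp of 8.40% of members (6.76 to 10.3) and 11.5% of all.

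The members were also poor in G and C. The central 300 bp had a median GC content of 46.7%, against 49.3% over all ranked peaks, 50% in the middle of the ranking and 50.3% in the lowest 1000. From the lowest to the highest of 5 bins of GC content, the share of ranked peaks that were members fell from 5.38% to 1.68%. Windows with no CpG made up 5.80% of members (4.43 to 7.43) and 3.54% of all. The peaks themselves were narrower, with a median width of 752 bp against 858 bp, as were the lowest 1000 with 752 bp. Both ends of the ranking took a larger share of the lowest than of the highest of 5 count bins, 4.38% against 1.57% for members.

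**Figure D2:**
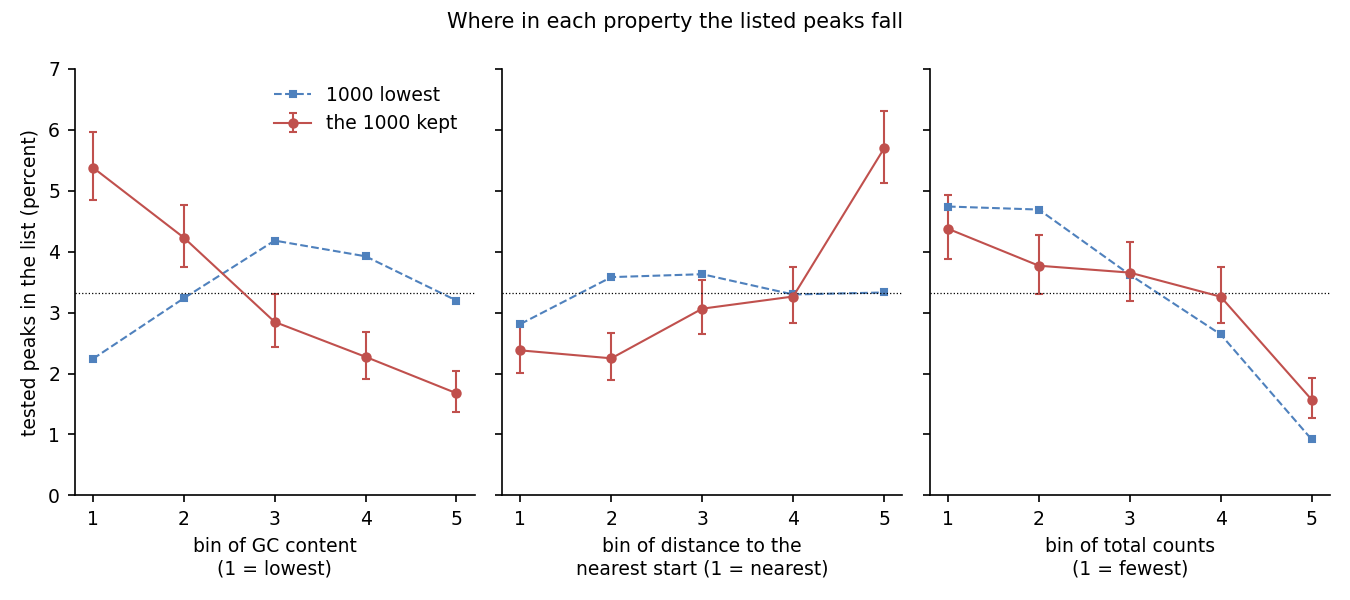
The vertical axis gives the percentage of ranked peaks in a list, for 5 bins of GC content, of distance to the nearest protein-coding start and of total counts; red circles with exact 95% intervals are members, blue squares the 1000 lowest, and the dotted line is the 3.33% that each list makes up. Members rise to 5.38% at low GC and 5.70% at long distance, and both lists fall with counts.

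Across chromosomes, members made up from 1.77% (1.26 to 2.42) of ranked peaks on chromosome 11 to 4.64% (3.50 to 6.01) on chromosome 14. Chromosome 11 had the highest median GC content of the ranked peaks, 51.3%, and chromosome 14 had 48.7%. The X chromosome, with 14 members of 415 ranked peaks or 3.37%, was close to the whole.

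Within 50 kb the members had neighbours about as often as the middle of the ranking. Another member lay within 50 kb of 9.80% of them (8.03 to 11.8), compared with 10.4% for the middle of the ranking and 17.2% (14.9 to 19.7) for the lowest 1000. Within 10 kb the shares were 3.40%, 2.00% and 4.20%. The members fell into 48 runs of neighbours no more than 50 kb apart, of which 2 had 3 members and the rest a pair, against 83 runs for the lowest 1000.

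One run of 3 lay between genes near Sst (chr16:23801108-23845381, 44.3 kb), where the 3 members were the only ranked peaks of the span. They had 190, 178 and 171 counts in set 1 against 10, 24 and 27 in set 2. The other lay in introns at Lsamp, which encodes a cell adhesion protein (chr16:41889007-41929985, 41.0 kb), with 97, 180 and 125 counts against 7, 31 and 20. The Lsamp promoter also had a high ratio, 257 counts against 64 or a log2 ratio of 1.46, and all 8 ranked peaks nearest to Lsamp were above 0. Among pairs, a pair nearest to Dsn1 had 961 against 274 counts and an Amotl2 pair within 5.24 kb had 771 against 173. The deeper peak of the Dsn1 pair is the one in an exon of Soga1.

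The 1000 members were nearest to 874 different genes, of which 763 had 1 member, 97 had 2 and 14 had 3 or more. By gene they were thus more concentrated than the middle 1000, with 936 genes, 55 with 2 peaks and 4 with 3 or more. The 1000 lowest had 892 genes, 84 with 2 and 9 with 3 or more. Only Thsd4, a gene for a thrombospondin-domain protein of the extracellular matrix, had 4. Its members had 420, 235, 232 and 92 counts in set 1 against 126, 60, 56 and 14 in set 2, and all 9 ranked peaks nearest to it had a ratio above 0, with a median of 1.03 and a promoter ratio of 0.66. The genes with 3 members included Ank3, Ak5, Sst, Ubp1, Rora, Diaph3, Rnf144b, Spry2, Lsamp, Kdr, Limch1 and Gbe1.

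Some of these genes had a whole locus with positive ratios and others single peaks. All 3 ranked peaks nearest to Ubp1, a transcription factor gene, were members, with 162, 254 and 109 counts against 14, 30 and 21, although its promoter had a log2 ratio of -0.14. Of the 19 ranked peaks of Rora, a nuclear receptor gene, 16 were above 0 and the promoter ratio was 0.54. Kdr, the VEGF receptor 2 gene, had 3 members with 131, 104 and 153 counts against 17, 15 and 29, while only 4 of its 12 ranked peaks were above 0 and 1 was among the 1000 lowest.

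Beyond the members, ratios of neighbours were read as a description, since they come from the same contrast. Distal ranked peaks in neither list that lay within 5 kb of a member had a median log2 ratio of 0.23 (171 peaks, 60.8% above 0). The median fell to 0.12 at 5 to 20 kb, 0.084 at 20 to 50 kb and 0.041 beyond 200 kb. Promoter peaks within 5 kb of a member had a median of 0.11 (49 peaks) against 0.0081 beyond 200 kb. A peak in neither list is below the ratio of the members by construction.

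The promoters of the nearest genes followed weakly. Of the 874 genes, 695 had a promoter peak with enough counts, with a median log2 ratio of 0.042 and 395 above 0, or 56.8%. Over all 12950 such promoters the median was 0.0098 and 51.9% were above 0. The genes nearest to the 1000 lowest peaks had a median of -0.037 and 43.7% above 0. Genes with 2 or more members had a median of 0.071, with 57 of 96 above 0. When every cell was thinned to the same number of counts, which left 7021 ranked peaks and another choice of members, the nearest promoters had a median of 0.0071 and all promoters 0.0038.

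Gene lists chosen for HSC biology were then set against the share of members among all ranked peaks, 3.33%. Among genes known to rise in old HSCs, 11 of 79 ranked peaks were members, 13.9% (7.16 to 23.5), in 7 of the 24 genes with a ranked peak, and none was among the 1000 lowest. The interval included the share of all ranked peaks at a minimum of 200 counts, 17.1% (6.56 to 33.6) against 6.76%, and with thinned cells, 31.6% (12.6 to 56.6) against 14.2%. Neo1, a netrin and RGM receptor gene, had 2 intronic members with 149 and 133 counts against 18 and 31. The members of Cavin2, a caveolae gene, had 436 and 121 counts against 94 and 31, and its promoter had a ratio of 1.71. Enpp5 had 147 against 14 counts, and Slamf1, which encodes the CD150 surface marker of HSCs, 315 against 53 in an intron. Amotl2, Ptprk and Nupr1 held the other members, and the Nupr1 promoter had a ratio of 1.80.

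Megakaryocyte and platelet genes had 6 members of 86 ranked peaks, 6.98% (2.60 to 14.6), among them the 2 of Cavin2, which is also on the list of old HSC genes, and 1 of Thbs1. HSC regulators had 8 of 242, 3.31%, close to the background. Among these were 2 peaks 304 and 372 kb upstream of Runx1 with 432 and 224 counts against 90 and 63, and 1 peak each of Lmo2, Mecom and Sox17. Genes of the Hippo pathway and TEAD had 2 of 58, both in Amotl2.

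Signalling genes of the TGF-beta, BMP and Wnt families had 6 of 175, 3.43%. The peak nearest to Wnt5a, which lies in an intron of Erc2, had 170 counts against 10 and a GATA word, and the peak nearest to Smad6, an inhibitory SMAD, had 124 against 9 and a TEAD word. Smad3, Tgfbr1, Tgfbr2 and Acvr1 had 1 member each. Progenitor and cell cycle genes had 5 of 95, or 5.26% (1.73 to 11.9), with 280 against 24 counts at a peak 82.1 kb from Hes1, a Notch target, and further members at Hes1, Notch1, Myc and Mycn. Genes of AP-1 and the early response had 3 of 121, near Klf6, Klf4 and Bach2, and HSC surface and niche genes 4 of 129, near Slamf1, Cd47, Kit and Itga9.

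Lymphoid genes had 2 members of 146, near Bcl11a and Foxo1, and myeloid genes 1 of 59, near Klf4. The lowest 1000 held more peaks than the members in these lists, 8 and 6, in the surface and niche list, 10, and in the progenitor and cell cycle list, 6. The intervals of all lists other than the old HSC list included 3.33%. That list was drawn up with earlier results of these data known, and its genes overlap with the stem cell and platelet lists.

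The sequence words did not enter the rule. Each word was searched on both strands of the central 300 bp. The GATA word AGATAAG was found in 162 members, 16.2% (14.0 to 18.6), compared with 5.46% of all ranked peaks, 4.00% of the middle and 4.10% of the lowest 1000. This is 2.97 times the share of all ranked peaks, and 2.65 times when all peaks were weighted to the GC content of the members. The same letters read backwards, used as a control, occurred in 2.20% of members and 2.53% of all. Among the 1000 peaks chosen from thinned cells the GATA share was 9.80%, against 5.63% of the peaks ranked there.

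The share of members rose with the number of matches. Among ranked peaks with no GATA word 2.95% were members, with 1 word 9.63% (8.21 to 11.2) and with 2 or more 15.3% (7.88 to 25.7, 11 of 72 peaks). In members the GATA word lay within 50 bp of the peak centre in 49.4% (41.4 to 57.3) of those that held it, against 35.3% (32.9 to 37.8) in the other ranked peaks. Among the peaks with the lowest ratios it was 48.8% (32.9 to 64.9, 20 of 41 peaks with the word). That interval is wide and includes 49.4% and 35.3%, so a central GATA word was not shown to be particular to the members. In the sequences shown above, the GATA words of the Kcna4 and B4galt5 peaks lie toward either end of the window and not at the centre.

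The AP-1 word TGACTCA was found in 167 members, 16.7% (14.4 to 19.2), compared with 9.81% of all ranked peaks and 9.50% of the lowest, while its reversed letters occurred in 5.30% and 5.37%. The share of members rose from 3.08% of peaks without the word to 5.50% with 1 and 7.83% with 2 or more. The TEAD word ACATTCC occurred in 5.60% of members (4.26 to 7.21) and 3.92% of all, with 4.10% expected at the members' GC content, and the reversed letters were at 3.80% and 3.35%. The interval included the background with thinned cells, 4.40% (3.21 to 5.86) against 3.86%, and at a minimum of 200 counts, 4.70% (3.47 to 6.20) against 3.90%. TEAD words lay within 50 bp of the centre in 53.6% (39.7 to 67.0) of the 56 members that held one, against 34.1% (31.3 to 36.9) of the other peaks with the word. Members with both a GATA and an AP-1 word numbered 15, among them the B4galt5 peak.

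Other words were less frequent in the members or near the background. The CTCF motif was found in 5 members, 0.50% (0.16 to 1.16), against 5.35% of all ranked peaks and 7.80% of the middle, and the lowest 1000 had as few, 0.20%. With thinned cells it was at 1.10% against 1.32% of the peaks ranked there, which lay inside the interval of the members, and the gap narrowed with each peak counted once per cell, at 1.30% (0.69 to 2.21) against 2.54%. The PU.1 word GAGGAAGT occurred in 5.20% of members (3.91 to 6.76) and 7.38% of all, against 14.2% of the lowest 1000, with its reversed letters also lower in members, at 1.40% and 2.21%. The interval of the members included the background with thinned cells, 6.80% (5.32 to 8.54) against 7.15%, and with each peak counted once per cell, 6.00% (4.61 to 7.66) against 7.25%. The share of members fell from 3.41% of peaks without it to 2.40% with 1 match. The MEIS word CTGTCA was at 18.3% against 22.2%, but its reversed letters were also lower in members. The RUNX word TGTGGTT was at 14.7% against 13.1% of all, within its counting interval of the 14.5% expected at the members' GC content, and the E-box CAGCTG at 17.7% against 18.1% expected.

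The STAT word TTCCNGGAA occurred in 2.00% of members (1.23 to 3.07) and 1.27% of all, or 1.25% at the members' GC content. For the words of KLF, C/EBP, HOX, NFI, IRF and ETS factors other than PU.1, the share at the members' GC content lay inside the interval of the members. None of the 15 words was in 258 members. A match is a run of letters and not a bound site, and which factors occupied these peaks was not measured.

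**Figure D3:**
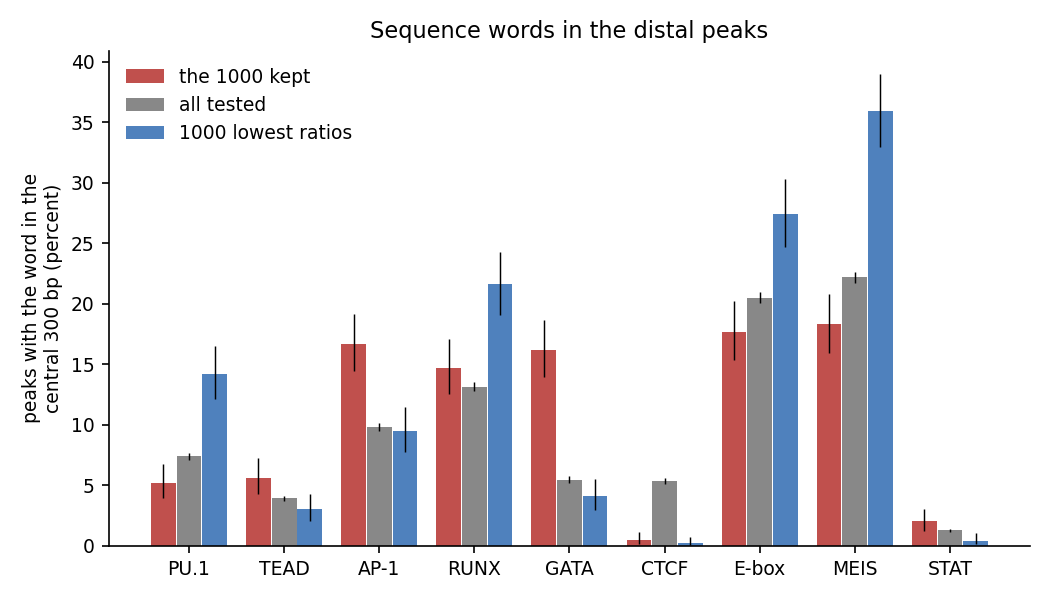
Bars give the percentage of peaks with a sequence word in the central 300 bp, for members (red), all ranked distal peaks (grey) and the 1000 peaks with the lowest ratio (blue), with exact 95% intervals. The GATA and AP-1 bars of the members are above both others at 16.2% and 16.7%, PU.1 and MEIS are highest in the lowest 1000, and CTCF is rare at both ends.

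The members were next followed across single cells within each set. Every cell was thinned to 4899 counts, which left 749 cells of set 1 and 560 of set 2, and its member score was the percentage of counts in ranked distal peaks that fell in members. The score had a median of 3.60% in set 1, with the 5th and 95th percentiles at 1.61% and 5.31%. In set 2 the median was 0.832% and the percentiles were 0.208% and 3.30%. The median cell of set 1 had counts in 51 members and that of set 2 in 12. The difference between the sets restates the selection. The spread within each set did not enter the rule, but the counts of these same cells did. This spread was not measured with peaks chosen in other cells.

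The sets overlapped. Between the 5th and 95th percentiles of the other set lay 293 of the 749 cells of set 1, 39.1%, and 113 of the 560 cells of set 2, 20.2%. Of the 749 cells of set 1, 9 had a score below the median of set 2, and of the 560 cells of set 2, 21 lay above the median of set 1. Within set 1 the standard deviation of the score was 2.57 times what binomial counting of independent cut sites gives, and within set 2 it was 3.80 times. Cut sites often come in pairs, so such factors are too high. For the 1000 peaks in the middle of the ranking these factors were 1.24 and 1.30, and for the 1000 lowest 2.80 and 4.32, above those of the members.

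**Figure D4:**
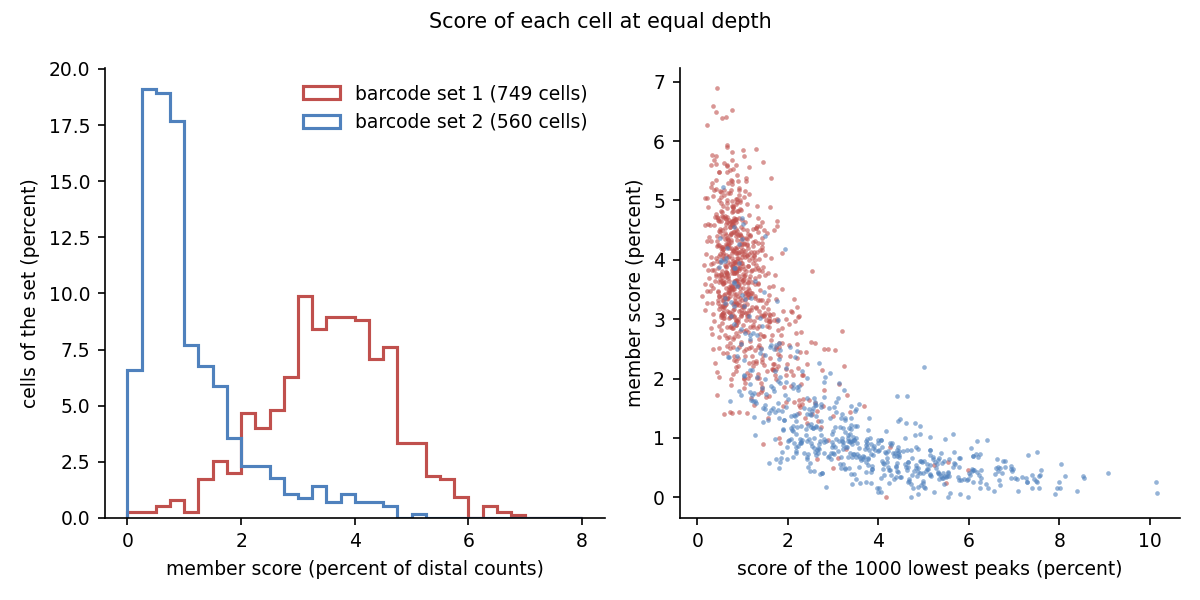
Left, the percentage of cells (vertical) by member score in percent of distal counts (horizontal) for barcode set 1 (red, 749 cells) and set 2 (blue, 560 cells); right, each cell's member score against its score of the 1000 lowest peaks. The sets peak near 3.60% and 0.832%, set 2 has a tail that reaches the scores of set 1, and cells high in one score are low in the other.

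Members on different chromosomes varied together. The score from the 513 members on odd-numbered chromosomes had a Pearson correlation with that from the 473 members on even-numbered chromosomes of 0.59 across the cells of set 1 (Spearman 0.56) and of 0.80 across those of set 2 (Spearman 0.70). For the middle 1000 peaks the values were 0.0013 and -0.017, and for the 1000 lowest 0.68 and 0.83, so covariation was not particular to the members. The points share a library, a fixed depth and a denominator, and the correlations are a description of these cells. When peaks were chosen in every second cell and followed in the others, the values were 0.51 in set 1 and 0.70 in set 2, and 0.62 and 0.80 with the roles swapped. Without the lowest and highest 5% of cells by score, the correlation between chromosomes was 0.40 in set 1 and 0.70 in set 2.

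**Figure D5:**
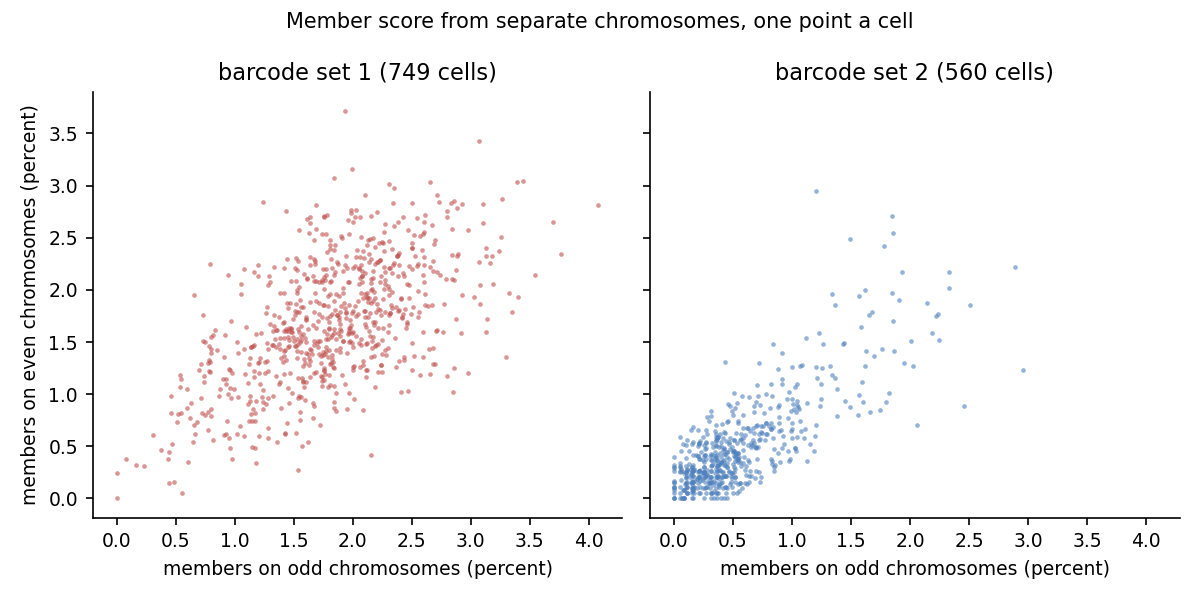
Each point is a cell thinned to 4899 counts, with its score from members on odd-numbered chromosomes (horizontal, percent of distal counts) and on even-numbered chromosomes (vertical). The scores rise together in set 1 (Pearson 0.59) and in set 2 (0.80), where most cells lie near the origin.

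The member score fell where the score of the 1000 lowest peaks rose, with a Pearson correlation of -0.58 in set 1 and -0.71 in set 2. Both lists share the denominator and are opposite ends of 1 ranking made from these cells, and the part of either in the correlation was not tested. For the middle 1000 the correlation with the member score was -0.13 and 0.093. That list cannot serve as a control here, as its own odd and even chromosomes did not vary together (0.0013 and -0.017). The members with a GATA word and those with an AP-1 word also varied together, at 0.19 in set 1 and 0.36 in set 2, and members with neither word correlated with the GATA members at 0.30 and 0.49. The covariation was thus not limited to peaks with either word.

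Depth and promoter signal were set beside the score. Counts per cell before thinning had a Pearson correlation of 0.0019 with the member score in set 1 and -0.22 in set 2 (Spearman -0.32), so the cells of set 2 with high scores were shallower. The share of counts in promoters had -0.20 and -0.044. With both held constant, the correlation between odd and even chromosomes was 0.58 and 0.78. The part of cell mixtures or doublets, for which no caller was run, was not tested.

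The accessibility of other gene groups was read from their peaks in none of the 3 lists. The peaks nearest to old HSC genes had a correlation with the member score of 0.22 in set 1 and 0.25 in set 2. Those of HSC regulators had 0.00058 in set 1 and 0.22 in set 2, and those of megakaryocyte and platelet genes 0.065 and 0.18. The progenitor markers had -0.066 in set 1 and -0.13 in set 2. Their correlation with the score of the middle peaks was 0.081 in set 1 and -0.14 in set 2. The value in set 2 was thus not particular to the members. With the member score, the LT-HSC markers had 0.040 in set 1 and 0.17 in set 2, and the megakaryocyte markers 0.013 and 0.11. The marker lists of B cells, T cells, granulocytes and monocytes and red cells lay between -0.10 and 0.067 in both sets. Correlations between single members were near 0.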

How the data were processed

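Single-cell ATAC-seq libraries were processed by the authors with the cellranger-atac pipeline (Cell Ranger ATAC 1.2.0 per the submitters' processing notes, builds mm10 and GRCm38), and the deposited table holds raw counts of transposase cut sites per peak and cell barcode, with no normalization stated. It has 93513 peaks and 1454 cells, 818 in barcode set 1 (13050952 counts) and 636 in set 2 (9820094 counts), with 224 to 136173 counts per cell. A second deposited table gives no peak names and was not used here. No label pairs a barcode set with a sample, so the table was treated as 1 pooled sample, no group comparison was made and no p-value is given, since cells are not replicates. Members and lists were chosen with earlier results of these data known.

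The log2 ratio of CPM of set 1 over set 2 (pseudocount 1) was computed for peaks more than 1000 bp from a GENCODE M21 protein-coding start with at least 100 counts. Locations, distances and nearest genes came from the same annotation, with peak starts taken as 0-based in the table and given 1-based here. Members were compared with the 1000 lowest and the 1000 middle peaks of the ranking and with all 30022. Words were searched on both strands of the central 300 bp of the RefSeq GRCm38 sequence, with each word read backwards as a control, and matches of different words may overlap. Shares have exact Clopper-Pearson intervals, counts Poisson intervals and count ratios intervals from the exact binomial. The interval of a median over peaks came from the ranked values of the peaks. For values per cell, cells were thinned without replacement to 4899 counts, the 10th percentile, leaving out 69 cells of set 1 and 76 of set 2, and no doublet caller was run. The named members were the 10 with the highest ratio and the 10 with the most counts, the genes nearest to most members, the longest runs within 50 kb, and listed genes with a member, apart from an item that is not reported here. The weighting by GC content and the correlations with depth held constant or without extreme cells were chosen after the data were seen. Python 3.11.15, numpy 2.4.6, scipy 1.17.1, pandas 2.3.3 and pysam 0.24.0 were used, and the ranking, the word search and the split by chromosomes were tested on simulated data.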

Additional observations from a re-analysis of the deposited data

How the results depend on the processing

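No paired analysis was possible because each group had 1 sample and no barcode set could be matched to a sample. With each peak counted at most once per cell, which left 13331 ranked peaks and 322 of the 1000 members, the members' median log2 ratio was 0.97, the fold of their summed share 2.18, the intron share 45.3% and the GATA share 12.7% (background 5.47%). Without cells over 3 times the median counts, the median ratio was 1.45 and the fold 3.24, and 777 members were kept. A pseudocount of 5 CPM gave 1.00, 3.04 and 45.4% in introns. A minimum of 200 counts gave 1.11, 2.44, 45.2% in introns and 12.8% with the GATA word. A promoter window of 5000 bp gave 1.48 and 3.42. The 500 highest peaks had a median ratio of 1.80, a fold of 4.54 and a neighbour within 50 kb in 4.40%, and the 2000 highest 1.23, 2.75 and 16.1%, with a GATA share of 12.75%. Thinned cells, with 7021 ranked peaks and 132 of the members, gave 0.78, 1.81, 45.6% in introns, 9.80% with the GATA word (background 5.63%) and a nearest promoter median of 0.0071, and the C/EBP word turned from above to below its background, at 11.6% against 12.2%. These lists differ by construction, as fewer peaks pass 100 counts. In the central 500 bp the GATA share was 19.7% against 8.32%. Counting any overlap with an exon left 43.6% of members in introns, and a neighbour lay within 10 kb of 3.40% and within 200 kb of 25%. The correlation of odd and even chromosomes was 0.66 in set 1 without thinning, 0.51 and 0.70 in sets 1 and 2 with peaks chosen in the other cells, and 0.40 and 0.70 without the lowest and highest 5% of cells. All counts come from 1 library per set, so differences between mice, and the ratio of peaks under 100 counts, were not measured.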
